A study of Homo sapiens with 4 samples.

Results

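The mitochondrial matrix and inner membrane hold their own chaperones and proteases, which are encoded in the nucleus, made in the cytosol and imported. Described here are 10 of their genes among the 62700 in the count table, HSPD1, HSPE1, HSPA9, DNAJA3, LONP1, CLPP, CLPX, AFG3L2, SPG7 and YME1L1. They were taken from a list of targets of the mitochondrial unfolded protein response and not by a cutoff on a measured value. The choice was made with earlier results of these data known. All 10 were found by symbol. The chaperones fold imported proteins, and the proteases remove proteins that stay misfolded or unassembled. When unfolded protein builds up in the matrix, mammalian cells can raise transcription of several of these genes, and the integrated stress response, read out through factors such as ATF4 and ATF5, is often engaged with it.

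The RNA came from HEK293T cells, a line of human embryonic kidney origin, that carried the genotype CMV-V5-MITO-PRADA: a V5-tagged PRADA labelling construct behind the CMV promoter, directed to the mitochondrial matrix. The labels describe the line as a stable clone derivative, so all libraries share the construct and no parental line was compared. Every culture received 4-thiouridine (s4U), a uridine analogue, at 100 µM for 5 h, followed by s4U plus alkyne phenol at 0.5 mM for 30 min. D-amino acid, which starts the reaction, was given at 10 mM for 30 min to the labelled group (2 libraries) and withheld from the unlabelled group (2 libraries). The design text calls the material labelled and enriched, but the protocols in the labels describe no enrichment step and do not say whether unlabelled samples went through one. A value here is therefore a share of the RNA that entered a library, and a fold change cannot be assigned to recovery or to the cells' RNA levels. The comparison is of samples with and without the reaction of the matrix-directed construct. Titles call the samples biological replicates, but the labels do not say that they came from separate cultures, so the spread between them may be partly technical.

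Libraries held 5771795 to 12287451 assigned fragments. Mitochondrially encoded RNA took 9.04% and 10.4% of them in the unlabelled libraries and 27.0% and 30.9% in the labelled ones. Unlabelled replicate 2 was the shallowest library and had 105 fragments outside annotated exons per 100 assigned, against 49.5 to 68.5 in the other libraries. Unlabelled replicate 1 had the most unassigned records that map to several places, 22599823, against 6059635 to 15992331 in the other libraries. Its median absolute log2 difference over genes from unlabelled replicate 1 was 0.257, while unlabelled replicate 1 differed from the labelled libraries by 0.184 and 0.202. A chi-square of the counts per degree of freedom gave the other order. It was 11.5 for the unlabelled pair. With labelled replicates 1 and 2 it was 59.4 and 79.9 for unlabelled replicate 1 and 46.3 and 63.6 for unlabelled replicate 2. By the median difference, unlabelled replicate 2 was the further from the labelled libraries, at 0.271 and 0.294. All 5 HEK293 markers were detected in every library, PAX2 at 8.90 to 13.6 and VIM at 179 to 216 counts per 1000000 (CPM), and LHX1, NEFL and NEFM at 0.445 to 6.35. Markers of differentiated kidney were at 0.754 or less, with UMOD at 0 throughout. Of markers of blood, fibroblasts and endothelium, HBB and DCN were at 0 in each library, and CD74 (8.02 to 13.1) and COL1A1 (11.8 to 20.5) had enough counts for the test and did not pass.

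None of the 10 genes passed the test between labelled and unlabelled libraries. By edgeR's quasi-likelihood test, 0 of 10 had an adjusted p under 0.05, where 0.285% of the 18973 genes tested did, and 0 of 10 had an unadjusted p under 0.05, where 11.5% of all genes did. DESeq2 also called 0 of 10, where it called 0.432% of all genes. Log2 fold changes, labelled over unlabelled, ran from -0.25 for SPG7 to 0.21 for HSPA9, with 9 above 0 and a median of 0.14, against -0.01 over all genes tested. In 5 of 10 genes the groups did not overlap, 4 of them higher and 1 lower in the labelled libraries. Over all genes 44.6% did not overlap, 22.2% higher and 22.4% lower, so the count of 5 stands near the background. In these bulk libraries fewer cells of a type and less RNA per cell cannot be told apart.

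**Figure D1:**
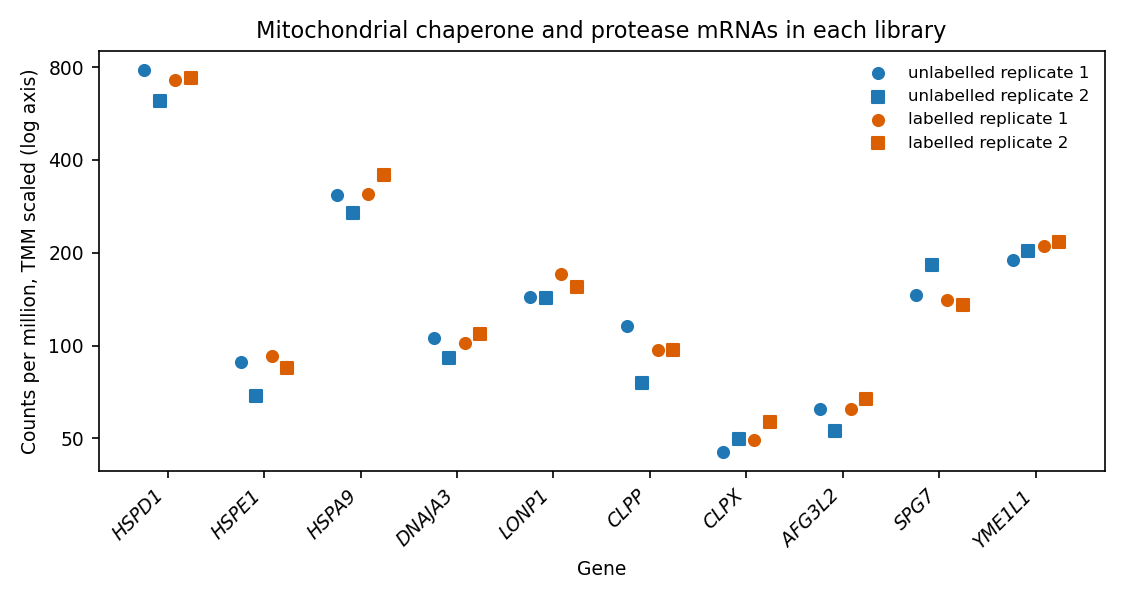
Level of each gene in each library, in CPM scaled by TMM, on a log axis, with 1 point per library (2 unlabelled, 2 labelled). Levels in unlabelled replicate 1 run from 45.1 for CLPX to 784 for HSPD1. The 2 unlabelled points lie furthest apart on the log axis for CLPP, at 116 and 75.7.

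The matrix chaperonin is a barrel of HSP60, the product of HSPD1, closed by a lid of HSP10, the product of HSPE1. The genes lie head to head on chromosome 2 (GRCh38), HSPD1 (ENSG00000144381) at 197486584 to 197516737 on the minus strand and HSPE1 (ENSG00000115541) at 197500140 to 197503449 on the plus strand. The stretch between their RefSeq starts is shown because both genes would be transcribed away from it. It spans 104 bases at chr2:197500275-197500378 (GRCh38.p14, plus strand), with a GC content of 74%, and the capitals mark the E-box CACGTG:
HSPD1 to HSPE1: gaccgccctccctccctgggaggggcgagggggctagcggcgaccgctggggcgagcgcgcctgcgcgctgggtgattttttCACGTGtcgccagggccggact
A further site is shown because heat shock factor, a known regulator of this gene pair, reads repeats of GAA and TTC. It lies at chr2:197500061-197500090 on the minus strand, 245 to 228 bases upstream of a RefSeq start of HSPD1 at 197499840 and downstream of the start at 197500274, and the capitals mark the 18 bases covered by overlapping matches:
HSPD1 heat shock element: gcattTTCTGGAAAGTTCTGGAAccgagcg
The pattern searched on both strands for this site was GAA, TTC and GAA with NN between neighbours. It was found in 0.491% of the 34796 distinct RefSeq windows of 300 bases, and in 1 of the 11 windows of the 8 genes that have one here, that of HSPD1. A match describes letters and is no evidence of binding.

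HSPD1 had the highest level of the 10. Its CPM was 784 and 620.4 in unlabelled replicates 1 and 2, and 726 and 737 in labelled replicates 1 and 2. Both labelled values fell between the unlabelled ones. The log2 fold change was 0.06 ± 0.18 (SE, 2 libraries a group; edgeR adjusted p = 0.928), with a 95% interval of -0.33 to 0.45. For HSPE1, CPM was 88.4 and 68.8 without D-amino acid and 92.8 and 84.4 with it, again overlapping. Its log2 fold change was 0.17 ± 0.14 (edgeR adjusted p = 0.674; interval -0.15 to 0.48). Both chaperonin genes were lower in unlabelled replicate 2 than in the other libraries.

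Within a library, which needs no scaling between libraries, HSPD1 had 8.86 and 9.02 counts for each count of HSPE1 in the unlabelled libraries and 7.83 and 8.74 in the labelled ones. The labelled ratios were the lower ones, by 0.11 on the log2 scale, with a two-sided exact permutation p of 0.333 (0.6 after Benjamini-Hochberg adjustment over the 9 ratios compared). The difference was -0.033 without labelled replicate 1 and -0.19 without labelled replicate 2. With 2 libraries a group, 6 arrangements exist and 0.333 is the smallest p they can give. Counts of HSPE1 are the less certain of the pair. Of its exon bases 17.9% are shared with HSPD1 or with the read-through gene HSPE1-MOB4 (2 to 9 counts per library), and a fragment that overlaps exons of several genes is left unassigned. Its 26 annotated pseudogene copies held counts equal to 11.0 to 18.6% of its own, against 1.49 to 2.14% for the 18 copies of HSPD1. Adding the copies to the parent gave HSPE1 a log2 fold change of 0.15. Of 47 copies of the 10 genes, 4 had enough counts for the test (HSPD1P1, HSPD1P4, HSPD1P11 and HSPE1P27) and 0 passed.

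HSPA9 encodes mortalin, the mitochondrial Hsp70 that pulls proteins in through the inner membrane and folds them, and DNAJA3 encodes TID1, a J-protein partner that stimulates its ATPase. HSPA9 (ENSG00000113013) lies on chromosome 5 at 138553756 to 138575675, and DNAJA3 (ENSG00000103423) on chromosome 16 at 4425805 to 4456775. HSPA9 had a CPM of 308 and 269 unlabelled against 309.9 and 359 labelled. The groups did not overlap, but labelled replicate 1 lay just above unlabelled replicate 1. Its log2 fold change, the highest of the 10, was 0.21 ± 0.15 (edgeR adjusted p = 0.608; interval -0.11 to 0.54). DNAJA3 had a CPM of 106 and 91.4 unlabelled and 102 and 109 labelled, with overlapping groups and its log2 fold change came to 0.09 ± 0.13 (edgeR adjusted p = 0.811; interval -0.19 to 0.38). HSPA9 had 2.91 and 2.94 counts per count of DNAJA3 without D-amino acid and 3.04 and 3.30 with it. That difference of 0.12 on the log2 scale had the smallest exact permutation p possible here, 0.333. It was 0.17 without labelled replicate 1 and 0.059 without labelled replicate 2.

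LONP1 encodes the Lon protease of the matrix, which degrades oxidised and misfolded proteins. The gene (ENSG00000196365) lies on chromosome 19 at 5691834 to 5720572. Its RefSeq window holds 2 E-boxes and that of HSPA9 holds 1. These are shown because the same CACGTG stands between HSPD1 and HSPE1, so that 4 of the 11 windows of these genes hold it, where 7.2% of all windows do. The HSPD1 and HSPE1 windows hold it through the same site. It was picked out from several patterns searched, and its excess was not tested. The sites are at chr5:138575403-138575432, chr19:5720341-5720370 and chr19:5720178-5720207, all on the minus strand of GRCh38.p14, with the E-box in capitals:
HSPA9 E-box: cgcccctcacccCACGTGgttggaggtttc
LONP1 distal E-box: ctcacagccttcCACGTGaccggaaaaggc
LONP1 proximal E-box: cgcgccgggcgtCACGTGcgtttcgcggcg
The C/EBP-ATF composite TGATGNAAT, sought on both strands as the kind of site that stress-response factors of the ATF4 family read, was in 0 of the 11 windows and in 1% of all windows. That says only that these letters are not in these windows. Shorter patterns were searched as well, on both strands. TTCNNGAA was in 2 of the 11 windows (HSPA9 and HSPD1) and in 7.76% of all windows. GAANNTTC was in 1 of the 11 (HSPD1) and in 6.79% of all, and TGCAAT in 1 of the 11 (HSPD1) and in 8.22% of all.

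LONP1 was the steadiest gene among unlabelled libraries, with a CPM of 143.2 and 142.6, and stood at 170.4 and 154.4 in the labelled ones. The groups did not overlap. Even so, its log2 fold change of 0.18 ± 0.13 did not pass (edgeR adjusted p = 0.609; interval -0.10 to 0.47). CLPP, the proteolytic core of the ClpXP protease, lies on the same chromosome (ENSG00000125656, 6361531 to 6370242), and CLPX (ENSG00000166855, chromosome 15 at 65148219 to 65185342) encodes the unfoldase ring that feeds it. CLPP had the widest replicate spread, with a CPM of 116 and 75.7 in the unlabelled libraries, while the labelled ones, at 97.0 and 96.5, lay between these. Its log2 fold change was 0.01 ± 0.17 (edgeR adjusted p = 0.991; interval -0.37 to 0.39). CLPX had the fewest counts, 331 to 588 per library, with a CPM of 45.1 and 49.9 unlabelled and 49.4 and 56.6 labelled. The groups overlapped, and the log2 fold change was 0.16 ± 0.13 (edgeR adjusted p = 0.655; interval -0.12 to 0.45).

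The count ratio of CLPX to CLPP was 0.389 and 0.659 in the unlabelled libraries and 0.510 and 0.586 in the labelled ones, and that of LONP1 to CLPP was 1.24 and 1.88 against 1.76 and 1.60. In both ratios the labelled libraries lay between the unlabelled ones (exact permutation p = 1 for each). Unlabelled replicate 1, where CLPP was high, had the lowest value of both.

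The inner membrane carries AAA proteases whose catalytic sites face opposite sides. AFG3L2 and SPG7 (paraplegin) form the m-AAA protease, which faces the matrix, and YME1L1 forms the i-AAA protease, which faces the intermembrane space. AFG3L2 (ENSG00000141385, chromosome 18 at 12328944 to 12377227) had a CPM of 62.1 and 52.8 unlabelled against 62.3 and 67.1 labelled. The groups just failed to overlap, and the log2 fold change was 0.17 ± 0.13 (edgeR adjusted p = 0.642; interval -0.12 to 0.45). Of its exon bases 11.7% are shared with TUBB6 on the other strand, so fragments there were not assigned. YME1L1 (ENSG00000136758, chromosome 10 at 27110111 to 27155266) had a CPM of 189 and 202 unlabelled and 210.2 and 217 labelled, all labelled values being higher. Its log2 fold change was 0.13 ± 0.13 (edgeR adjusted p = 0.739; interval -0.16 to 0.42).

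SPG7 (ENSG00000197912, chromosome 16 at 89490719 to 89557766) was the only 1 of the 10 with a negative log2 fold change. Its CPM was 146 and 183 in the unlabelled libraries and 141 and 135 in the labelled ones, without overlap, and the log2 fold change was -0.25 ± 0.14 (edgeR adjusted p = 0.522; interval -0.56 to 0.06). The high value was that of unlabelled replicate 2, the library with the most fragments outside annotated exons. SPG7 also has by far the longest summed exons in the deposited table, 35761 bases where its longest principal transcript in GENCODE 29 has 3359. Whether these properties have a part in its lower labelled values was not tested.

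For the m-AAA pair, AFG3L2 had 0.425 and 0.289 counts per count of SPG7 without D-amino acid and 0.442 and 0.497 with it. With all 4 libraries this was the largest of the 6 partner differences, 0.42 on the log2 scale, with no overlap and the smallest exact permutation p the design allows, 0.333. It was 0.70 without unlabelled replicate 1 and 0.14 without unlabelled replicate 2, where CLPX over CLPP (0.49) and LONP1 over CLPP (0.44) differed more. The ratio of AFG3L2 to YME1L1 overlapped between groups, at 0.328 and 0.262 unlabelled and 0.296 and 0.310 labelled (exact permutation p = 1).

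**Figure D2:**
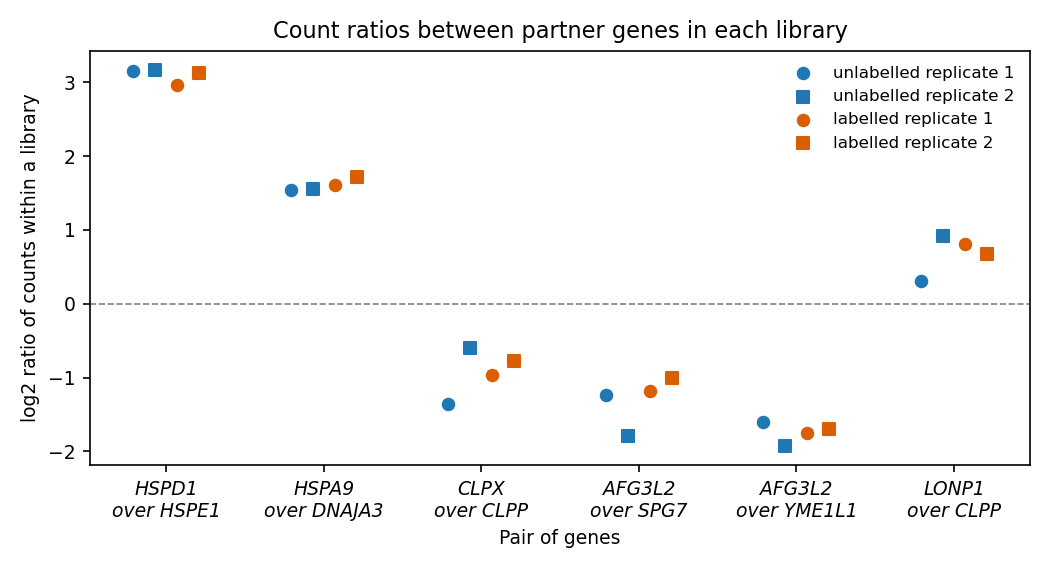
Log2 ratio of the counts of 2 partner genes within each library, with 1 point per library. HSPD1 over HSPE1 and HSPA9 over DNAJA3 are steady across the 4 libraries, while the ratios with CLPP and that of AFG3L2 over SPG7 are spread most widely between the 2 unlabelled libraries.

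To compare the genes with each other, CPM was divided by exon length in kilobases as deposited. On that scale HSPD1 led with 94.0 ± 9.0 CPM per kb (SD, 4 libraries), followed by HSPE1 at 45.9 ± 5.7. Then came HSPA9 at 31.8 ± 3.8, LONP1 at 30.3 ± 2.6, YME1L1 at 27.9 ± 1.6 and CLPP at 27.3 ± 4.6, whose ranges over libraries overlapped. On this length LONP1 lay above YME1L1 within each library, and the order of the other pairs among these genes changed between libraries. DNAJA3 followed at 14.4 ± 1.1, and CLPX at 9.2 ± 0.9 and AFG3L2 at 8.6 ± 0.8 overlapped each other. SPG7 was lowest at 4.2 ± 0.6. Divided instead by the longest principal transcript in GENCODE 29, a choice made after seeing the data, SPG7 stood at 45.0 and CLPX was lowest at 10.7, while HSPD1 still led at 292. HSPE1 at 88.0 and CLPP at 83.2 then overlapped in range and were not separated. From the first length to the second, SPG7 moved from place 10 to 7 and CLPP from 6 to 3. LONP1 moved from 4 to 6, CLPX from 8 to 10, HSPA9 from 3 to 4 and DNAJA3 from 7 to 8. The places of these genes therefore turn on which exons are counted as their length.

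As a set the 10 genes took 0.240% and 0.225% of nuclear gene counts unlabelled against 0.246% and 0.247% labelled, a log2 difference of 0.08 (exact permutation p = 0.333). It was 0.13 without unlabelled replicate 1 and 0.036 without unlabelled replicate 2. HSPD1 alone made up 35.4 to 39.4% of their counts. Of all assigned counts, mitochondrial ones included, their share was 0.218% and 0.202% unlabelled and 0.179% and 0.171% labelled, which is 0.26 lower on the log2 scale. Both shares have the same numerator, and only the second has mitochondrial counts in its denominator. Those counts took a larger share of the labelled libraries, as given above.

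Transcripts made inside mitochondria had larger fold changes than the nuclear transcripts of the chaperones and proteases that work there. For each 100 counts on the 13 mitochondrially encoded mRNAs, the 10 genes had 2.63 and 1.99 counts without D-amino acid and 0.680 and 0.591 with it. This ratio was 3.61-fold lower with labelling, with no overlap and the smallest exact permutation p possible, 0.333. Leaving out a library in turn gave log2 differences of -2.05 to -1.65. The log2 fold change was above 0 for each of the 13 mitochondrial mRNAs (median 1.96). DESeq2 called 11 of them, where it called 0.432% of all genes, and 4 passed edgeR's adjusted threshold, where 0.285% of all genes did. The 3 with the smallest p were MT-ND1 at 2.42 ± 0.34 (edgeR adjusted p = 0.00725), MT-ND6 at 2.01 ± 0.33 (0.0248) and MT-CYB at 2.11 ± 0.36 (0.0289). MT-ND1 and MT-ND6 encode subunits of complex I and MT-CYB a subunit of complex III. Among the 10 nuclear genes the highest upper bound of a 95% interval was 0.54, that of HSPA9. The intervals of 2 mitochondrial mRNAs reached into that range, MT-ATP8 at 0.36 (-0.36 to 1.08), which encodes a subunit of ATP synthase and whose groups overlapped, and MT-ND3, another complex I subunit, at 0.78 (lower bound 0.11). The naming of these 2 was decided with their values in view, outside the rule for named genes.

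**Figure D3:**
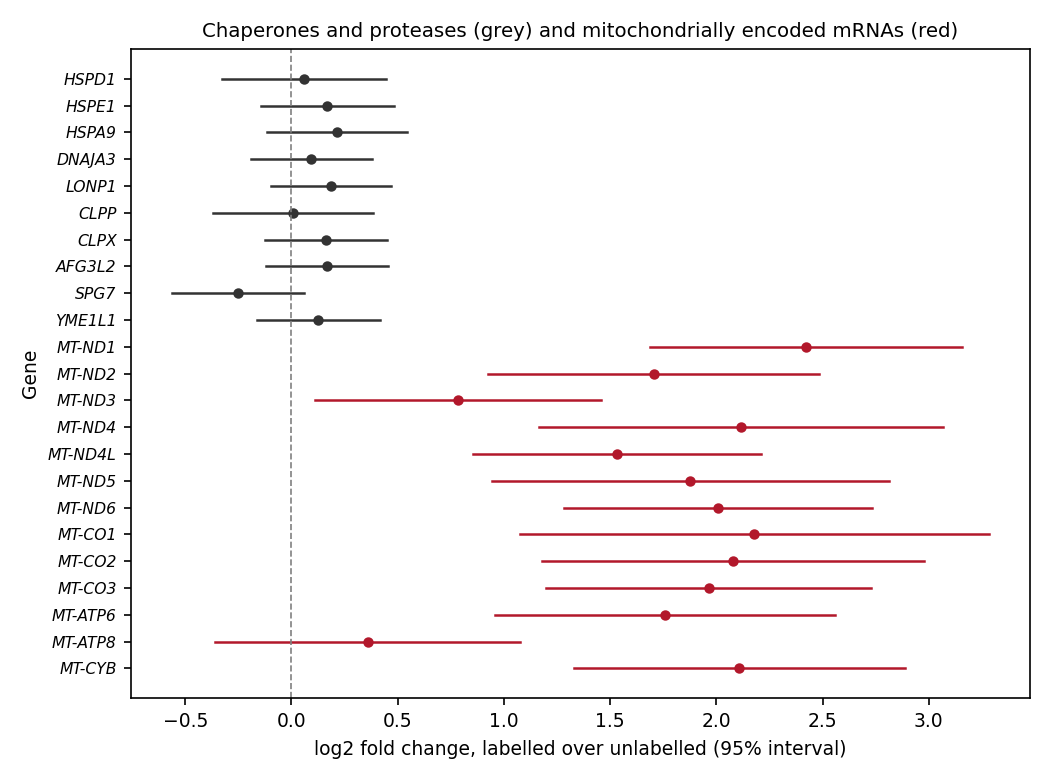
Log2 fold change of each gene, labelled over unlabelled, with its 95% interval from edgeR (2 libraries a group), beside the mitochondrially encoded mRNAs. Every interval of the 10 chaperone and protease genes spans 0, while that of MT-ND1 centres on 2.42.

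Other mitochondrial chaperones and proteases also gave no call. Of 26 listed genes 25 were tested (DNAJC15 fell under the filter on low counts), 16 had a positive and 9 a negative log2 fold change, the median was 0.07 and 0 passed. At an unadjusted p under 0.05 there were 2 higher and 1 lower, where 11.5% of all genes were called in either direction. The median was 0.18 without unlabelled replicate 1 and -4.7e-04 without unlabelled replicate 2. The 3 with the smallest p were GRPEL2 and GRPEL1, nucleotide exchange factors of HSPA9, at 0.36 ± 0.13 and 0.38 ± 0.15 (edgeR adjusted p = 0.344 and 0.381), and PITRM1, a matrix peptidase that clears presequences, at -0.35 ± 0.13 (0.353). GRPEL2 passed with either unlabelled library left out (0.28 without replicate 1, 0.49 without replicate 2), GRPEL1 only without replicate 1 (0.66) and, among these 2 fits, PITRM1 only without replicate 2 (-0.42).

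Regulators of the mitochondrial stress response and known stress targets lay mostly above 0. Of 20 tested (FGF21 fell under the filter) 18 lay above 0 on the log2 scale, the median was 0.31, 14 lay higher without overlap, where 22.2% of all genes did, and 8 were higher at an unadjusted p under 0.05, where 5.67% of all genes were. The list was chosen with earlier results of these data known, so these counts are no independent evidence of a stress response. After adjustment over all genes 1 gene of the list passed. DDIT4, an inhibitor of mTORC1 signalling and target of ATF4, was at 50.3 and 39.1 CPM unlabelled against 80.3 and 81.1 labelled, and rose by a log2 value of 0.85 ± 0.14 (edgeR adjusted p = 0.0263). Its adjusted p was 0.0532 without labelled replicate 1 and 0.104 without labelled replicate 2, the highest over 13 alternatives, of which the lowest was 1.1e-16. CHAC1, a glutathione-degrading enzyme, had 0.70 ± 0.18 and TRIB3, a pseudokinase that restrains ATF4 output, 0.57 ± 0.15 (edgeR adjusted p = 0.211 and 0.228). Both passed with either unlabelled library left out, CHAC1 at 0.85 and 0.61 and TRIB3 at 0.83 and 0.40 (without replicate 1 and without replicate 2, in that order).

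The transcription factors best known for control of this response are given next, although outside the rule for named genes and chosen after their values were seen. ATF4 had a CPM of 798 and 613 unlabelled and 814 and 1103 labelled (0.44 ± 0.21, edgeR adjusted p = 0.442), and DDIT3, which encodes CHOP, had a log2 fold change of 0.42 ± 0.27 (0.562). Neither passed with all libraries, and ATF4 passed at 0.68 without unlabelled replicate 1. ATF5 had 0.03 ± 0.16 and HSF1, the heat shock factor, -0.02 ± 0.13 (edgeR adjusted p = 0.966 and 0.977), with overlapping groups for both.

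Chaperones of other compartments gave medians near that of the mitochondrial ones. Of the 20 cytosolic chaperones 19 lay above 0, the median was 0.16 and 0 passed. Without overlap of the groups, 10 lay higher and 0 lower, where 22.2% of all genes lay higher and 22.4% lower. This list too was chosen with earlier results of these data known. At an unadjusted p under 0.05, 3 were higher, where 5.67% of all genes were. The cytosolic median was 0.35 without unlabelled replicate 1 and 0.050 without unlabelled replicate 2. HSPA1A, an inducible Hsp70, went from 8.02 and 2.56 to 16.7 and 17.1 CPM (1.60 ± 0.33, edgeR adjusted p = 0.0934). It passed in 8 of 13 alternatives, including each library left out in turn, where its log2 fold change ran from 1.08 to 2.74. Its edgeR or DESeq2 adjusted p ran from 4.2e-18 to 0.691 over the alternatives, the highest with DESeq2. Its counts are uncertain, because HSPA1B, at 209 to 253 CPM, is a near-identical copy. Fragments that map equally to both were left uncounted, and how well the remaining ones separate the 2 genes was not tested. BAG3, an Hsp70 co-chaperone, had 0.48 ± 0.16 and DNAJA2, a J-protein, 0.42 ± 0.15 (edgeR adjusted p = 0.314 and 0.342), and both passed without unlabelled replicate 1, at 0.81 and 0.65. For each 100 counts on cytosolic chaperones the 10 mitochondrial genes had 26.7 and 29.8 unlabelled and 27.2 and 26.3 labelled, with overlap (exact permutation p = 0.667). Of the 14 endoplasmic reticulum (ER) chaperones 11 lay above 0, the median was 0.16 and 0 passed. Without overlap of the groups, 3 of these lay higher and 1 lower. At an unadjusted p under 0.05 there were 2 higher and 1 lower, again to be read against 11.5% of all genes. The ER median was 0.34 without unlabelled replicate 1 and -0.022 without unlabelled replicate 2. HSPA5, the ER Hsp70, had 0.60 ± 0.17, CRELD2, an ER stress-induced protein, -0.30 ± 0.13, and DNAJB11, an ER J-protein, 0.30 ± 0.14 (edgeR adjusted p = 0.264, 0.412 and 0.430). HSPA5 passed without unlabelled replicate 1 (0.89) and without unlabelled replicate 2 (0.38), and DNAJB11 without replicate 1 (0.49).

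**Figure D4:**
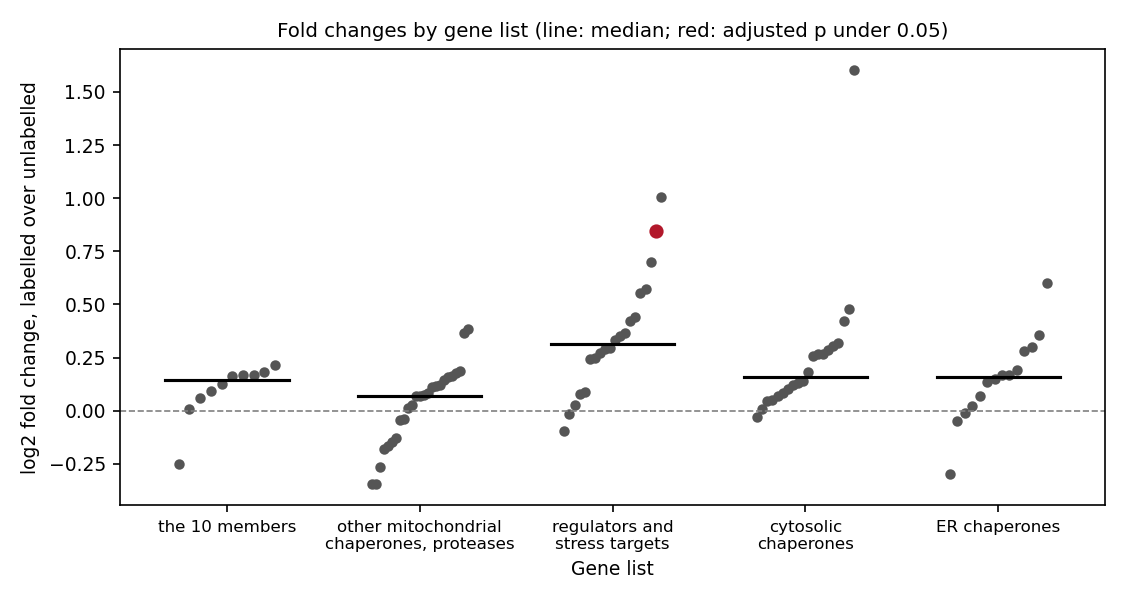
Log2 fold change, labelled over unlabelled, of each tested gene in the 5 nuclear gene lists, with the median of each list as a line and the gene that passed the adjusted threshold, DDIT4, in red. The 10 chaperone and protease genes lie between -0.25 and 0.21. Each of the other lists reaches higher, the cytosolic chaperones furthest, at 1.60 for HSPA1A.

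The log2 fold changes of the 10 genes depended on which unlabelled libraries were used. The unlabelled pair differed more than the labelled pair in 7 of 10 genes, as in 66.3% of all genes, and in 6 of 10 the group difference was smaller than the difference between the unlabelled libraries, as in 57.5% of all genes. Without unlabelled replicate 1, leaving only the library that stood apart as control, edgeR called 4 of 10 higher and 1 lower, where 19.0% of all genes tested were called, 11.6% higher and 7.37% lower. The higher ones were HSPE1 at 0.39 (adjusted p = 0.00395), CLPP at 0.38 (0.00450), HSPA9 at 0.35 (0.0159) and AFG3L2 at 0.33 (0.0277), and SPG7 was lower at -0.37 (0.00288). Over the 13 alternatives the highest adjusted p of each of these 5 genes was 1.00. A fit with 1 control library assumes that it varies as the labelled pair does. Without unlabelled replicate 2, HSPE1 had 0.0055, CLPP -0.26, HSPA9 0.13, AFG3L2 0.066 and SPG7 -0.079. HSPD1 had -0.094 and DNAJA3 -4.2e-04, and the median of the 10 was 0.036.

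Scaling set the sign of most of these small values. With library size alone, mitochondrial counts included, the median over all genes moved from -0.01 to -0.37 and all 10 log2 fold changes were negative, with SPG7 called lower at -0.61 (edgeR adjusted p = 0.0243), where 14.5% of all genes were called, 14.1% lower. Relative to the median of all genes, 9 of 10 were above and SPG7 below under either scaling.

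**Figure D5:**
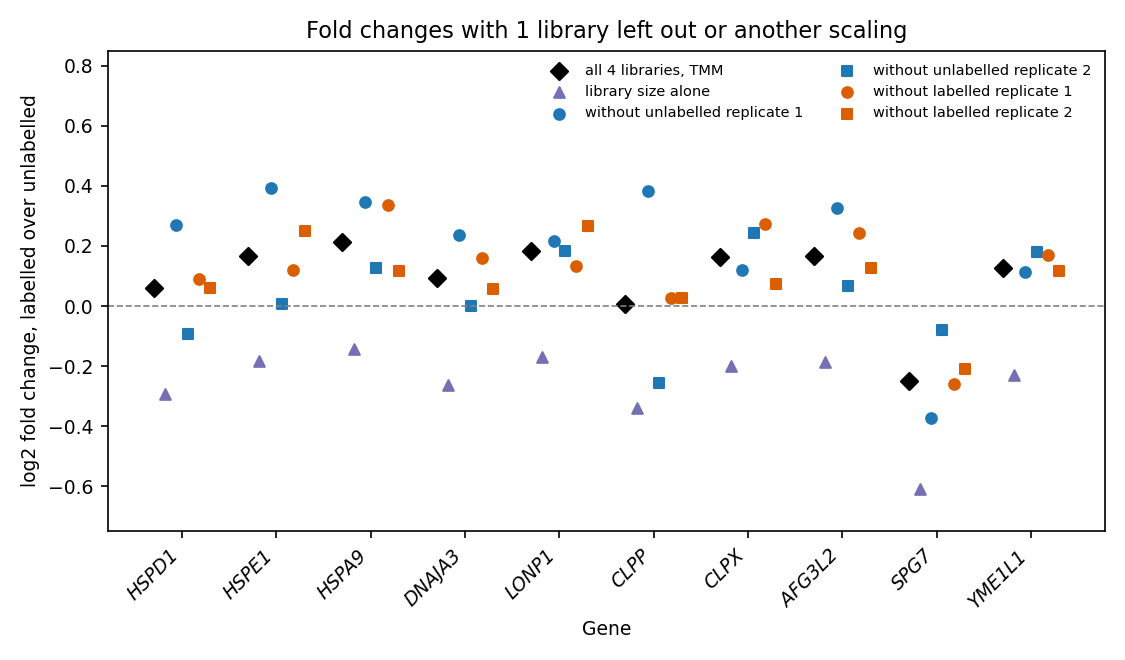
Log2 fold change of each gene, labelled over unlabelled, with all 4 libraries, with library size alone, and with each library left out in turn, 1 point per setting. CLPP runs from -0.34 to 0.38 and changes sign, while SPG7 is below 0 under each of these settings.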

How the data were processed

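RNA-seq libraries of 2 unlabelled and 2 labelled HEK293T samples were compared, grouped by title. The deposited values are whole-number fragment counts per gene. Per the file headers the authors counted them with featureCounts 1.6.4 on GENCODE 44, over exons summed by gene, requiring both ends mapped, excluding chimeric pairs, with no option for strand, multi-mapping or overlapping genes. The submitters' processing notes name STAR 2.7.9a, GRCh38 and DESeq2 1.42.0. Without strand, sense and antisense fragments cannot be told apart.

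Genes passing filterByExpr (18973) were tested with edgeR 4.0.16 (TMM, quasi-likelihood, no block, R 4.3.3), with Benjamini-Hochberg adjustment over all of them and a threshold of 0.05. CPM used TMM-scaled library sizes. A standard error was taken as the absolute log2 fold change over the root of edgeR's F. Ratios within a library used a two-sided exact permutation test (6 arrangements) in Python 3.11.15 (pandas 2.3.3, NumPy 2.4.6), and plots used matplotlib 3.10.9. The edgeR step was tested on simulated data. At the lowest count of each of the 10 genes, the counting error is 1.56 to 5.50%, for counting error only. DESeq2 1.42.0, other scalings and filters, thinning, a replicate block and each library left out were alternatives.

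The 10 genes and all lists were chosen with earlier results of these data known. Named genes are the 10, the 3 of each list with the smallest edgeR p, and genes that overlap or copy one of the 10. Symbols matched all 62700 identifiers. Promoter windows, 250 bases before to 50 after a start, are RefSeq's on GRCh38.p14, and covered 8 of the 10 (not CLPP and YME1L1). GENCODE 29 gave the lengths of principal transcripts. Xenograft material was not analysed here. All sample columns were used.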

Additional observations from a re-analysis of the deposited data

How the results depend on the processing

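With library size alone, 9 of the 10 genes changed sign: HSPD1 had a log2 fold change of -0.29, HSPE1 -0.18, HSPA9 -0.14, DNAJA3 -0.26, LONP1 -0.17, CLPP -0.34, CLPX -0.20, AFG3L2 -0.19 and YME1L1 -0.23, as did DNAJB11 (-0.053) and ATF5 (-0.33). Medians were then -0.21 for the 10 genes, -0.28 for other mitochondrial chaperones and proteases, -0.037 for stress genes, -0.20 for cytosolic and -0.20 for ER chaperones, 1.60 for mitochondrial mRNAs and -0.37 for all genes. Calls were 2675 lower over all genes, 1 lower among the 10, 4 lower among other mitochondrial genes, 1 lower each among stress genes and ER chaperones, 1 higher among cytosolic chaperones (HSPA1A) and 11 mitochondrial mRNAs. As a share of all assigned counts, the 10 genes changed by -0.26 in place of 0.08.

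Over all genes, 51 were called higher and 3 lower. DESeq2 called 19 lower and 11 mitochondrial mRNAs, and RLE size factors gave 5 lower. Without mitochondrial genes 27 were called higher. With no filter on low counts 183 were higher and 119 lower, among them 3 stress genes, 1 cytosolic and 1 ER chaperone (HSPA1A and HSPA5) and 12 mitochondrial mRNAs, and HSF1 had 0.012. Thinned to the lowest total, 6 were lower, 1 cytosolic chaperone (HSPA1A) and 7 mitochondrial mRNAs were higher, and CLPP had -0.038.

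With each library left out in turn, calls ran from 49 to 2440 higher and 9 to 1545 lower over all genes, 0 to 4 higher and 0 to 1 lower among the 10, 0 to 6 higher and 0 to 2 lower among other mitochondrial genes, 0 to 12 stress genes, 1 to 14 cytosolic and 0 to 7 ER chaperones, and 7 to 13 mitochondrial mRNAs. Medians ran from 0.036 to 0.25 for the 10 genes, 0.25 to 0.45 for stress genes, 0.050 to 0.35 for cytosolic chaperones, -0.022 to 0.34 for ER chaperones, -4.7e-04 to 0.18 for other mitochondrial genes and 1.74 to 2.08 for mitochondrial mRNAs. Ratio differences ran from -0.15 to 0.0022 against cytosolic chaperones, -0.19 to -0.033 for HSPD1 over HSPE1, 0.059 to 0.17 for HSPA9 over DNAJA3, 0.14 to 0.70 for AFG3L2 over SPG7, -0.27 to 0.49 for CLPX over CLPP, -0.12 to 0.21 for AFG3L2 over YME1L1 and -0.17 to 0.44 for LONP1 over CLPP. Of single genes that changed sign, HSPD1 ran from -0.094 to 0.27, DNAJA3 from -4.2e-04 to 0.24, CLPP from -0.26 to 0.38, ATF5 from -0.083 to 0.20 and HSF1 from -0.096 to 0.11.

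Deviations of same-numbered libraries had a correlation of -0.07 across genes. With 2 libraries a group this value cannot decide whether replicate numbers pair the samples, and the labels do not say what a number marks. With the replicate block 140 genes were called higher and 96 lower, including 2 stress genes and 1 cytosolic chaperone (HSPA1A), and 0 of the 10, where 1.24% of all genes were called. Adding pseudogene copies to their parent, and the GENCODE 29 transcript length, were chosen after seeing the data. The cause of these changes was not tested.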
